A study of Mus musculus with 200 samples.

Results

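Whole mouse embryos at embryonic day 11.5 were compared by the genotype of their mother, within the second of 2 sequencing flowcells and within a narrow range of stage. They are N2 backcross embryos. In the cross B6 × F1 the mother was of the inbred strain C57BL/6J (B6) and the father a hybrid (F1) of B6 and CAST/EiJ (Cast). In the cross F1 × B6 the mother was the hybrid and the father B6. At each autosomal gene an embryo carries either 2 B6 alleles or 1 B6 and 1 Cast allele. The hybrids had B6 mothers and Cast fathers, so mitochondria are of B6 origin in either cross. No other treatment or allele was introduced. Members were the embryos of lanes H to N with a deposited genotype and 46 to 51 somites, the paired blocks of mesoderm whose number gives the stage. They were 52 in all, 37 with a B6 mother from 11 litters and 15 with an F1 mother from 4 litters, of 79 genotyped embryos in this flowcell and 168 N2 columns in the table. Among the other genotyped embryos of the flowcell, 9 had fewer somites, 16 had more and 2 had no somite number. At the edges of the window lay 10 embryos with 46 somites, all of B6 mothers, and 7 of B6 and 5 of F1 mothers with 51. Just outside it were 3 embryos with 45 somites, all of B6 mothers, and 4 of B6 and 3 of F1 mothers with 52.

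A mother can act on an embryo apart from the genes she hands down, through the egg cytoplasm, the uterus, and the nutrients and hormones that reach it across the placenta. Reversing a backcross changes the mother while the expected autosomal genotypes of the offspring stay the same. It also reverses which parent passes on the Cast alleles, and this matters for imprinted genes, which are read mainly from the maternal or from the paternal copy. The sex chromosomes differ as well. An F1 father passes on a B6 X or a Cast Y, while an F1 mother passes on an X that can carry Cast stretches. The paper reports that its maternal effects held when litter, developmental stage, embryo sex and X chromosome genotype were taken into account. Here only autosomal genes were compared, and embryo sex was not used. Embryos were heterozygous at a median of 47.1% of genes with B6 mothers and 48.6% with F1 mothers. Littermates share a mother, so the litter was the replicate for her genotype.

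Expression was measured by 3SEQ, which sequences the 3' ends of polyadenylated RNA from the whole embryo, freed of membranes and placenta. Between 473072 and 5370322 reads per embryo fell on genes, and levels are given in RPM, the reads of a gene scaled to 1000000 reads on genes. Of 17 regional markers of the embryo, from forebrain to blood, 15 had a mean of at least 5 RPM over the litters tested, while the forebrain gene *Otx2* was at 0.936 RPM. All 14 trophoblast markers in the table had means below 1 RPM, and 5 of them (*Prl3d1*, *Prl2c2*, *Ctsq*, *Cts7* and *Psg21*) were at 0 in every embryo. The 10 markers of visceral yolk sac summed to 9.07 to 17.6 RPM in litters of B6 mothers and to 15.0 to 20.2 RPM in those of F1 mothers. The 12 markers of maternal decidua and leukocytes in the table summed to 144 to 408 RPM and 212 to 286 RPM, and *Cd3e*, which marks T cells, was at 0 in every embryo. At genes called B6/B6, 0.162% of allele votes were Cast with B6 mothers and 0.273% with F1 mothers, and 1 F1-mother embryo of lane L reached 1.38%.

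Lane and mother were nearly the same split. Embryos of B6 mothers filled lanes H (9), I (6), J (8), K (7) and N (6), and those of F1 mothers lanes L (9) and M (6). A single embryo of a B6 mother, with 51 somites, shared lane M with the F1-mother embryos. The libraries of lanes H, I and J stood apart. The first principal component of log2(RPM + 1) held 64.3% of the variance over 10253 genes and ran from -135 to -93.6 in lanes H and I and from -60.7 to 21.7 in lane J. It took 10.9 to 119 in lanes K and N. F1-mother embryos took -35.3 to 99.9 in lane L and 56.9 to 102 in lane M, and the B6-mother embryo of lane M lay at 1.53. The 10 most abundant genes took a median of 17.8% of reads in lanes H and J and 18.5% in lane I, against 9.80% in K, 11.2% in N, 12.0% in L and 9.55% in the F1-mother embryos of M. Stage divided the lanes differently. Mean somite number was 49.0, 49.2 and 49.2 in lanes H, I and J, 46.7 and 46.5 in K and N, and 49.8 and 50.2 in L and the F1-mother embryos of M.

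**Figure D1:**
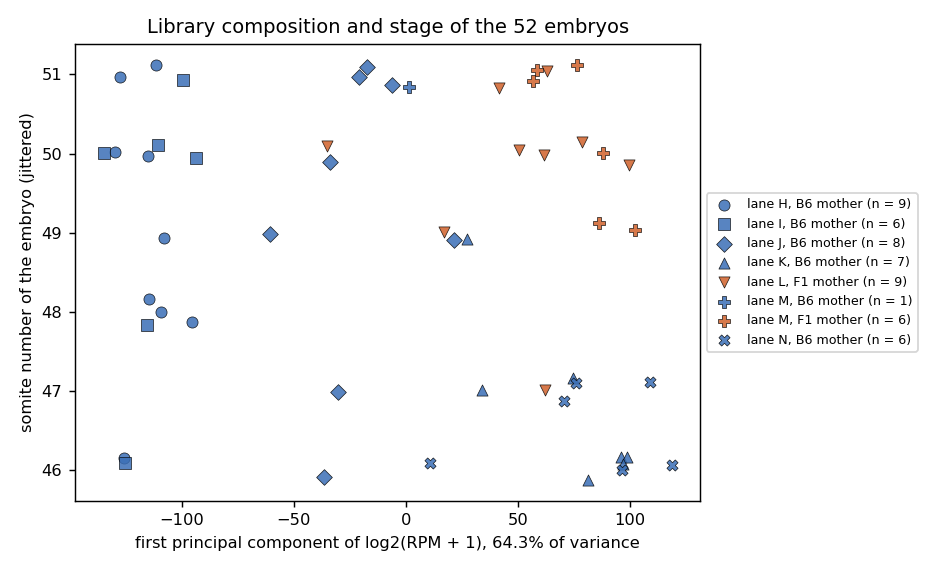
Each point is 1 of the 52 embryos, with the first principal component of log2(RPM + 1) on the x axis and somite number, jittered, on the y axis. Shape gives the lane and colour the mother (blue B6, orange F1). Lanes H and I lie at the left, J in the middle, and K and N at the right with most F1-mother embryos but, for all except 1 embryo of lane K, at 46 or 47 somites.

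Over litters, mean somite number was 48.3 ± 1.65 with B6 mothers (SD, n = 11) and 49.2 ± 1.54 with F1 mothers (SD, n = 4). The difference was 0.891 somites (two-sided exact permutation test over 1365 splits of the litters, p = 0.364). Embryos were selected by somite number, which limits this difference in advance, so the test cannot show that stage was matched. Over embryos the means were 48.3 with B6 mothers and 49.9 with F1 mothers.

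Genes were then compared by mother across the whole autosomal set. No gene passed. With counts summed per litter, 0 of 10253 genes that averaged 5 RPM or more were called (0.0%; edgeR's quasi-likelihood test, Benjamini-Hochberg adjusted p under 0.05, smallest adjusted p = 0.393). DESeq2 also called 0, with 1517 genes at an unadjusted p under 0.05. By edgeR 1228 genes had an unadjusted p under 0.05 (12.0%), 132 of them higher with an F1 mother (1.29%) and 1096 higher with a B6 mother (10.7%). That split moved with the scaling. When library totals replaced edgeR's TMM factors, 187 of 379 such genes were higher with an F1 mother, and the median log2 difference over all genes went from -0.04 to 0.24. It also moved when stage was adjusted for or narrowed. With litter mean somite number as a covariate, 3479 of 10253 genes had such a p, 1710 of them higher with an F1 mother. At 49 to 51 somites, which leaves out lane N and most of lane K, they were 3883 of 10175 and 1929. Neither setting called a gene. Mean somite number was lowest in lanes K and N, so neither setting separates stage from lane. In such bulk samples, fewer cells of a type and less RNA per cell cannot be told apart.

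The study's own test was a Mann-Whitney U test on the RPM of single embryos. The study ran it on all its N2 embryos. On the smaller set selected here it called 0 of 10253 genes at a Bonferroni-adjusted p under 0.01 (0.0%), and 5604 genes had an unadjusted p under 0.05. At a Benjamini-Hochberg adjusted p under 0.05 it called 4544 (44.3%), 3976 higher with an F1 mother (38.8%) and 568 higher with a B6 mother (5.54%). This split also moved with the scaling. On RPM scaled by TMM factors the test called 4375 of 10253, 2597 higher with an F1 mother and 1778 higher with a B6 mother. Littermates enter that test as independent embryos, so its p-values are too small for a statement about mothers. The paper also reports its effects as similar in direction and significance with expression averaged within each litter. On litter means of the embryos selected here, the exact Mann-Whitney test called 0 genes, with 1418 at an unadjusted p under 0.05. Its smallest p of 0.00147 could not pass the Bonferroni adjustment. Counting embryos as replicates in edgeR gave 2623 calls (25.6%), 579 higher with an F1 mother (5.65%) and 2044 higher with a B6 mother (19.9%).

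These counts depended on which B6-mother lanes were included. Without lanes H, I and J, 0 of 10597 genes were called by edgeR (0.0%) and 62 had an unadjusted p under 0.05 (0.585%), 19 higher with an F1 mother (0.179%) and 43 higher with a B6 mother (0.406%). The Mann-Whitney test then called 0 genes under either adjustment, with 836 at an unadjusted p under 0.05. Without lanes K and N instead, edgeR called 5113 of 10022 genes (51.0%), 2557 higher with an F1 mother and 2556 higher with a B6 mother (25.5% each). The Mann-Whitney test called 969 (9.67%), 938 of them higher with an F1 mother. Both exclusions were chosen after the lanes had been looked at. Fewer B6-mother litters then entered, 5 without lanes H, I and J and 8 without lanes K and N. Between lanes H, I and J and the F1-mother embryos, lane and mother cannot be told apart. Without those lanes, mean somite number over litters was 47.6 with B6 mothers and 49.2 with F1 mothers. The difference of 1.63 (exact permutation p = 0.238) leaves mother and stage partly mixed in every result without lanes H, I and J.

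Some litters were divided between lanes, so their embryos differed in lane, and in part in stage, but not in mother. In B6-mother litter 13, 3 embryos with 48 somites were in lane H and 2 with 46 or 47 in lane K. Of 10253 genes, 4321 were more than 2-fold higher in its lane K embryos and 687 in its lane H embryos, together 48.8% (ratio of mean RPM + 1). In B6-mother litter 3, with 2 embryos of 51 somites in lane J and 5 of 46 to 51 in lane I, 51.6% of genes were more than 2-fold apart. Lane and stage were not separated by a test. Lanes L and M were closer, with 2.63% of genes more than 2-fold apart in F1-mother litter 11 and 2.62% in litter 12. Across genes, the K minus H difference within litter 13 had a Pearson's r of 0.90 (Spearman's rho 0.90) with the difference between F1-mother embryos and the other B6-mother embryos of lanes H, I and J. The same comparison with the other B6-mother embryos of lanes K and N gave an r of -0.51 (rho -0.54). These correlations are across 10253 genes, which are not independent, and each pair of contrasts had no embryo in common.

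Set against lanes K and N, the F1-mother embryos differed little at 2-fold. Mean stage was not the same there, at 46.7 and 46.5 somites in K and N and 49.8 and 50.2 in the F1-mother embryos of L and M. Only 19 genes were more than 2-fold apart between the groups, 15 higher with an F1 mother and 4 higher with a B6 mother, 0.185% of the 10253. Against lanes H, I and J 37.3% were, and between the B6-mother embryos of K and N and those of H, I and J 44.8%. Inside lane M, the B6-mother embryo was below all 6 F1-mother embryos at 4677 genes (45.6%) and above all 6 at 1870 (18.2%). More than 2-fold apart were 27.01% of genes, 2656 higher in the mean of the F1-mother embryos and 113 higher in the B6-mother embryo. That comparison of mothers within a lane rests on 1 embryo and has no replicate check.

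The lane difference went with base composition. A protein-coding transcript was found for 97.5% of the genes tested, and genes were put in 10 equal groups by its GC content. From the group at 41.0% GC to that at 60.6%, the median log2 ratio of F1-mother embryos to B6-mother embryos of lanes H, I and J went from 1.62 to -0.32. Between the lane K and lane H embryos of litter 13 it went from 2.55 to -0.36. Against lanes K and N it went the other way, from -0.27 to 0.26. Among genes called without lanes K and N, those higher with an F1 mother had a median GC content of 46.8% and those higher with a B6 mother 56.4%, against 51.2% where no call was made. The part of GC content in these differences was not tested.

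**Figure D2:**
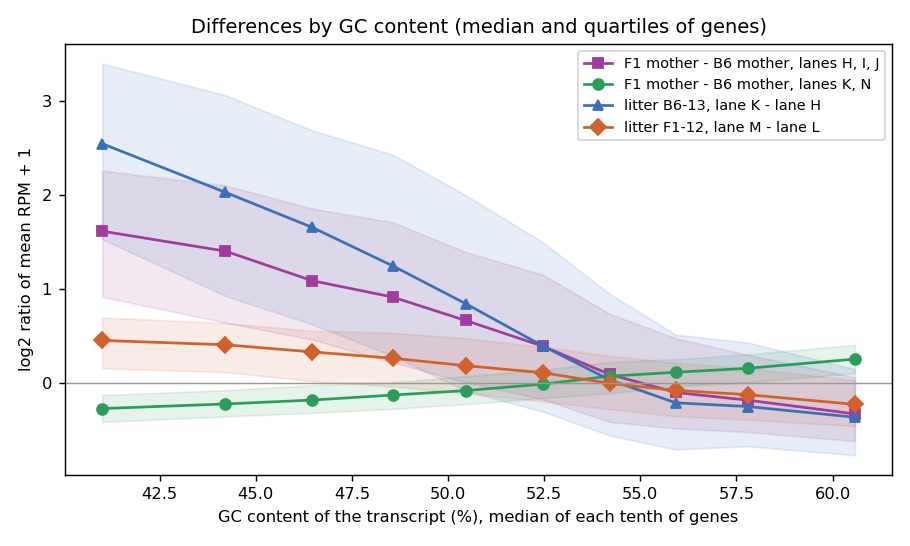
Median log2 ratio of mean RPM + 1 (y axis) over 10 equal groups of genes ordered by the GC content of the transcript (x axis, %), with bands from the lower to the upper quartile of genes. The line for lane K against lane H within litter 13 falls with GC content, as does the line for F1 mothers against B6 mothers of lanes H, I and J, while the line against lanes K and N rises from -0.27 to 0.26.

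The 10 genes with the smallest p on each side gave the detail. None passed (adjusted p = 0.393 for each, edgeR), and they were chosen by that p. On the F1 side were *Add1* (adducin, of the membrane skeleton), *Leprel2* (a collagen prolyl hydroxylase), *Hoxb2* (hindbrain patterning), *Agap1* (a regulator of membrane traffic) and *Thbs1* (the matrix protein thrombospondin). *Csf2rb* (a cytokine receptor subunit), *Dnmt1* (the maintenance DNA methyltransferase), *Chga* (chromogranin A of secretory granules), *Ston2* (an endocytic adaptor) and *Cul2* (a ubiquitin ligase scaffold) completed that side. Their log2 differences lay between 0.68 and 1.16. On the B6 side were *Nras* (a small GTPase), *Ggt1* (which cleaves glutathione), *Mcart1* (a mitochondrial carrier), *Pard6g* (cell polarity) and *Lgals3* (galectin-3). *Rcor1* (a corepressor), *Rps4y2*, *2900053A13Rik*, *Dnajc5* (a synaptic vesicle chaperone) and *Cpsf3* (which cuts pre-mRNA at its 3' end) followed, with log2 differences from -1.67 to -0.78. *Rps4y2* has near-identical copies among ribosomal protein genes, so its reads are uncertain.

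*Add1* was at 638, 580, 549 and 616 RPM in the F1-mother litters 3, 10, 11 and 12. In the 11 B6-mother litters it ran from 98.3 to 495 RPM (median 229), so the groups did not overlap. Its log2 difference was 0.89 ± 0.28 (SE). By lane it was 111, 173 and 199 RPM in H, I and J, 431 and 495 RPM in K and N, and 579 and 617 RPM in L and the F1-mother embryos of M. Within litter 13 it was 126 RPM in lane H and 621 RPM in lane K, while the means over litters were 260 ± 130 RPM with B6 mothers (SD, n = 11) and 596 ± 39.5 RPM with F1 mothers (SD, n = 4).

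*Thbs1* was at 43.4, 44.3, 52.3 and 32.05 RPM in the same F1-mother litters and at 4.57 to 30.5 RPM (median 14.0) in the B6-mother litters, also without overlap. Lanes H and I averaged 4.81 and 4.59 RPM, lane J 14.3 RPM, and lanes K and N 30.2 and 28.4 RPM. *Hoxb2* was at 32.8 to 39.2 RPM with F1 mothers and 4.12 to 27.2 RPM with B6 mothers. Its highest B6-mother litter was the lane N litter. Within litter 13 *Thbs1* was at 5.28 RPM in lane H and 45.9 RPM in lane K, and *Hoxb2* at 4.65 and 38.6 RPM. For both genes this lane K mean lay inside the range of the F1-mother litters.

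*Nras* was at 94.9, 112, 110 and 120 RPM in F1-mother litters 3, 10, 11 and 12 and at 113 to 267 RPM (median 189) in the B6-mother litters. Of the latter, 10 lay above every F1-mother litter and 1 inside their range. The log2 difference was -1.16 ± 0.36 (SE). Lanes H, I and J averaged 257, 243 and 187 RPM, lanes K and N 132 and 113 RPM, and lanes L and M 117 and 107 RPM with F1 mothers. Litter 13 had 242 RPM in lane H and 109 RPM in lane K.

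In the fit that left out lanes H, I and J the log2 differences of the 10 genes on the F1 side were 0.35 to 0.70, and those of the 9 still tested on the B6 side -0.60 to -0.31. An unadjusted p under 0.05 remained for *Csf2rb* (0.63), *Pard6g* (-0.52) and *Dnajc5* (-0.60). All 20 passed without lanes K and N, where 51.0% of all genes did. In flowcell 1 none of the 18 tested there passed, with log2 differences from -0.37 to 0.31.

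In mean RPM, not scaled by TMM factors, every F1-mother litter was above every B6-mother litter in 32 genes (0.312%), and every one was below in 7 (0.0683%). Of the genes above, *Lhx2* and *Hoxb2* code for transcription factors of the forebrain and hindbrain, *Ntn1* for the axon guidance cue netrin, *Hdac3* for a histone deacetylase and *Scrib* for a polarity protein. Of those below, *Nedd8* codes for a ubiquitin-like protein and *Actn3* for a muscle actinin. These names were picked after their values had been seen.

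**Figure D3:**
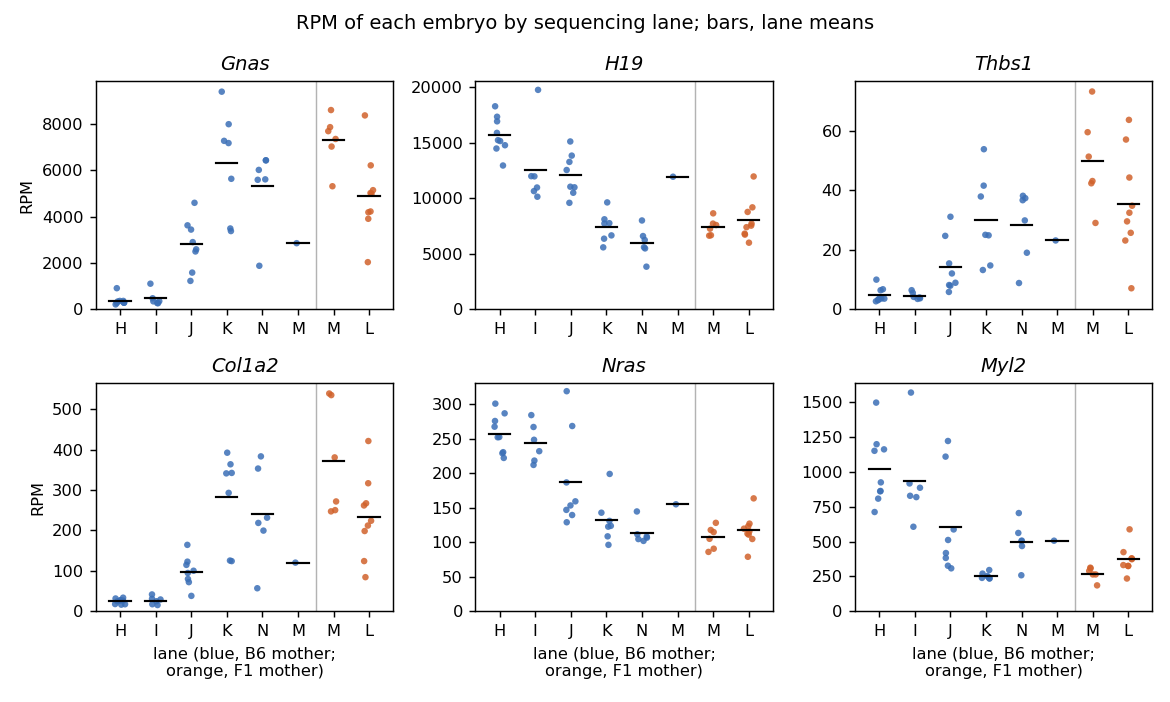
RPM of each embryo (y axis, from 0) by sequencing lane (x axis) for 6 genes, with blue points for B6 mothers, orange points for F1 mothers and a bar at each lane mean. Gnas, Thbs1 and Col1a2 are low and H19, Nras and Myl2 high in lanes H and I, and in each panel points of the B6-mother lanes K and N overlap those of the F1-mother lanes.

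From a longer list of genes linked to the mother's genotype, the study's text singles out the 3 described next. It did so on its 154 N2 embryos of both flowcells, which include these, so their choice is not independent of the values here. To exclude a batch effect, the study also measured genes by quantitative RT-PCR. It reports a difference by mother for *Angptl4* and *Gpx3* in that assay too. *Angptl4* codes for a secreted inhibitor of lipoprotein lipase and is a target of the fatty acid receptors PPAR. It lies on chromosome 17 from 33910695 to 33918520 (mm9, minus strand). It was at 46.9, 59.9, 53.1 and 57.0 RPM in F1-mother litters 3, 10, 11 and 12. In B6-mother litters it ran from 42.1 RPM in litter 11 through a median of 78.7 RPM to 120 RPM in litter 14, and the groups overlapped. The means were 54.2 ± 5.64 RPM (SD, n = 4) and 80.8 ± 26.9 RPM (SD, n = 11), a difference of -26.5 RPM (two-sided exact permutation test, p = 0.0777, and 0.0777 adjusted over the 3 genes). The smallest p this design allows is 0.000733.

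The B6-mother lanes again disagreed, but for *Angptl4* it was lane J that lay with the F1 mothers. Lanes H and I averaged 123 and 99.4 RPM, K and N 68.96 and 78.7 RPM, and lane J 49.1 RPM. Lanes L and M averaged 53.8 and 55.7 RPM with F1 mothers. The B6-mother embryo of lane M was at 107 RPM, above its 6 F1-mother lane-mates at 43.6 to 62.8 RPM. Within litter 13 the means were 129 RPM in lane H and 73.6 RPM in lane K. Without lanes H, I and J the 5 remaining B6-mother litters averaged 78.7 ± 16.6 RPM (SD) and lay above all 4 F1-mother litters (two-sided exact permutation test, p = 0.0238, and 0.0714 adjusted over the 3 genes). In the edgeR fit without these lanes its log2 difference was -0.58, and its p ranked 15 of 10597 with none passing.

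In flowcell 1, B6-mother embryos were in lanes A, B and F and F1-mother embryos in lanes C, D, E and G. Lane and mother cannot be told apart there either. At the same somite numbers, *Angptl4* was there at 91.3 to 106 RPM in 5 B6-mother litters and 46.0 to 76.1 RPM in 8 F1-mother litters, with no overlap. Its log2 difference there was -0.67 ± 0.10 (SE, edgeR adjusted p = 0.0802), and its p ranked first of 8421 genes. In flowcell 2 the log2 difference was -0.90 ± 0.33 (SE, adjusted p = 0.393, rank 90 of 10253). The interaction of mother and flowcell was -0.09 on the log2 scale (unadjusted p = 0.776, edgeR).

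*Gpx3* codes for a secreted glutathione peroxidase, which removes peroxides (chromosome 11, 54715955 to 54723879, plus strand). It was at 198, 294, 240 and 269 RPM in F1-mother litters 3, 10, 11 and 12, and at 213 to 526 RPM (median 329) in B6-mother litters, with 3 of the 11 inside the F1 range. The means were 250 ± 41.4 RPM (SD, n = 4) and 331 ± 76.1 RPM (SD, n = 11; two-sided exact permutation test, p = 0.0755). Without lanes H, I and J the B6 mean was 263 ± 42.8 RPM (SD, n = 5) and the difference -12.9 RPM (exact permutation p = 0.651). Without lanes K and N the difference was -115 RPM (exact permutation p = 0.00202). In flowcell 1 the B6-mother litters were at 252 to 368 RPM, the 3 F1-mother litters of lane C at 293 to 303 RPM and the other 5 at 125 to 219 RPM. The F1-mother litters of lane C therefore lay inside the B6 range.

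*Polm* codes for DNA polymerase mu, which fills in the ends of broken DNA (chromosome 11, 5727863 to 5738019, minus strand). It fell below the filter of 5 RPM and was tested alone. F1-mother litters 3, 10, 11 and 12 were at 4.50, 4.37, 5.67 and 2.87 RPM and B6-mother litters at 0.345 to 5.73 RPM (median 2.25). The means were 4.35 ± 1.15 RPM (SD, n = 4) and 2.44 ± 1.64 RPM (SD, n = 11; two-sided exact permutation test, p = 0.0586). Lanes H, I and J averaged 0.420, 1.61 and 1.62 RPM, lanes K and N 5.41 and 3.58 RPM, and lanes L and M 3.60 and 4.90 RPM with F1 mothers. The direction turned without lanes H, I and J, to a difference of -0.157 RPM (exact permutation p = 0.825).

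In flowcell 1 *Polm* reached 13.2 to 22.4 RPM in the 5 F1-mother litters of lanes D, E and G. It was at 1.44 to 2.59 RPM in the 3 F1-mother litters of lane C and 0.377 to 3.25 RPM in B6-mother litters. F1-mother litter 3 had embryos in both flowcells, at 20.7 RPM in lane D of the first and 4.50 RPM in lane L of the second. The interaction of mother and flowcell was -2.33 on the log2 scale (unadjusted p = 0.0148, adjusted p = 0.723, edgeR).

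**Figure D4:**
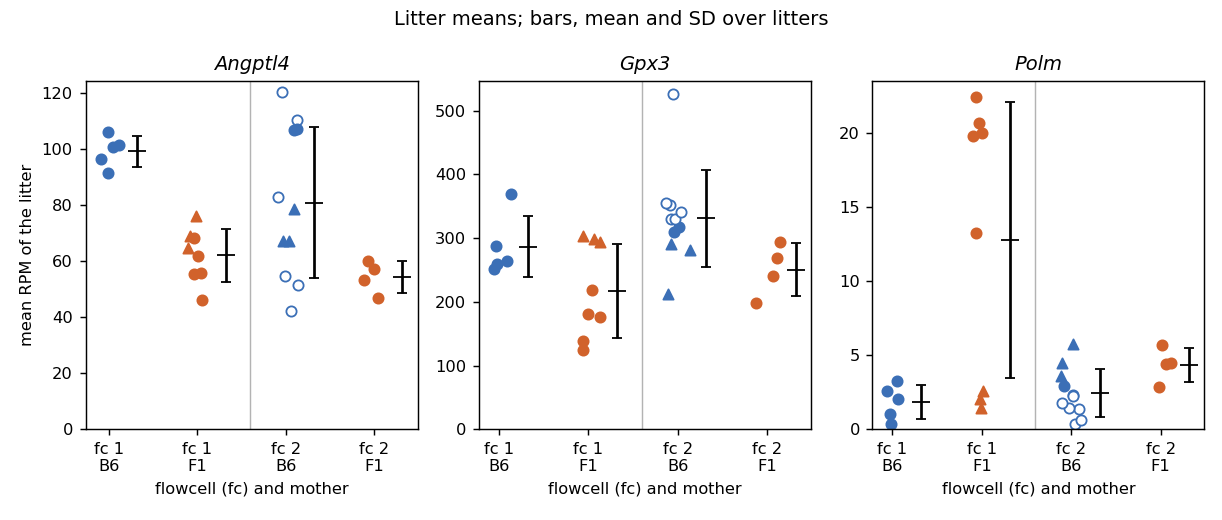
Mean RPM of each litter (y axis, from 0) for Angptl4, Gpx3 and Polm, by flowcell (fc) and mother on the x axis, with black bars for the mean and SD over litters. In flowcell 2, open circles are B6-mother litters of lanes H, I and J and triangles those of lanes K and N. In flowcell 1, triangles are F1-mother litters of lane C, which lie apart from the other F1-mother litters for Gpx3 and Polm.

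Gene lists by function were then read across the mothers. No list had a member that passed over all litters, against 0.0% of all genes, so each is described by its median log2 difference and by members at an unadjusted p under 0.05, of which all genes gave 12.0%. The median over all genes was -0.04.

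Striated muscle genes, which code for the contractile apparatus of heart and skeletal muscle, had a median of -0.86 over 24 tested. Of these, 15 had an unadjusted p under 0.05, each higher with a B6 mother, among them the ventricular light chain *Myl2* (-1.55), the troponins *Tnni3* (-1.14) and *Tnnc1* (-1.04), the heavy chain *Myh7* (-1.13) and desmin, *Des* (-1.16). *Myl2* was at 280, 379, 281 and 377 RPM in F1-mother litters 3, 10, 11 and 12 and at 240 to 1569 RPM (median 678) in B6-mother litters, 9 of which lay above all the F1-mother litters. Lanes H, I and J averaged 1019, 937 and 608 RPM, lanes K and N 254 and 500 RPM, and lanes L and M 373 and 271 RPM with F1 mothers. Without lanes H, I and J the median of the list was -0.16 and 0 members had a p under 0.05. Without lanes K and N it was -1.16, and 20 of 24 passed, all but 1 of them higher with a B6 mother, where 51.0% of all genes passed and 25.5% were higher with a B6 mother. Its median GC content was 54.9%, against 51.4% over all genes.

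Lens crystallins, the structural proteins of the lens, had a median of -1.15 over 7 tested, with *Crybb3* (-1.46) and *Cryba4* (-1.30) at an unadjusted p under 0.05. *Crybb3* was at 21.2, 6.24, 35.8 and 44.5 RPM with F1 mothers and 10.5 to 136 RPM with B6 mothers, and the litter with 6.24 RPM was a single embryo with 47 somites. Its median was 0.05 over 5 genes when lanes H, I and J were left out.

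Genes of lipid handling, the list that holds *Angptl4*, had a median of 0.39 over 21 tested. Of these, *Scd2*, a fatty acid desaturase (1.19), and *Acadl* (0.90) were higher with an F1 mother at an unadjusted p under 0.05. Among those higher with a B6 mother at that p were *Angptl4* and 3 genes of fatty acid oxidation, *Hadha* (-1.17), *Acadvl* (-0.93) and *Ech1* (-0.85). Without lanes H, I and J the median was 0.03 and 1 member had an unadjusted p under 0.05. The glutathione and peroxide list, with *Gpx3*, had a median of 0.15 over 21, and its members at that p were *Gpx3* and *Prdx2* (0.98). Glycolysis and hypoxia genes had a median of 0.08 over 22, with *Pkm2* (-0.86) and *Ldha* (0.79), neighbouring steps of glycolysis, on opposite sides. Cholesterol synthesis had a median of 0.02 over 20, with *Mvd* (-0.83).

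Oxidative phosphorylation genes, the nuclear subunits of the respiratory chain, had a median of -0.43 over 68 with TMM factors and -0.05 with library totals. Of these, 13 had an unadjusted p under 0.05, each higher with a B6 mother, such as *Atp5h* (-1.46), *Uqcrc1* (-1.33) and *Ndufs8* (-1.29). Cytosolic ribosomal proteins had a median of -0.26 over 64, which turned to 0.04 with library totals, and mitochondrial ribosomal proteins 0.05 over 69, with 5 members each higher with a B6 mother at that p. Proteasome genes had a median of -0.18 over 35, which turned to 0.17 with library totals. These 4 medians, without lanes H, I and J, were between -0.09 and -0.04.

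DNA replication and mitosis genes had a median of 0.22 over 26, and none had an unadjusted p under 0.05. Globins and erythroid genes had a median of -0.17 over 27, which turned to 0.18 with library totals. *Epb4.2* (1.31), *Uros* (1.04) and *Spna1* (0.98) were higher with an F1 mother at an unadjusted p under 0.05, and *Ppox* (-1.06) and *Rhag* (-1.01) with a B6 mother. The embryonic globin *Hbb-y* was at 33986 to 58111 RPM with F1 mothers and 26638 to 142857 RPM with B6 mothers. Fetal liver proteins had a median of -0.16 over 16, which turned to 0.18 with library totals, with fibrinogen *Fga* (0.89) at that p. Neuronal genes had a median of 0.08 over 26 with *Chga* at that p, cartilage and collagen genes 0.15 over 17 with *Col1a2* (1.04), *Col9a3* (0.91) and *Col2a1* (-0.77), immediate early genes -0.15 over 12 (0.16 with library totals) with *Ier3* (-1.08), and chaperones 0.17 over 13 with none.

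Imprinted genes had a median of 0.09 over 36. *H19* (-1.06), *Meg3* (-0.85) and *Rtl1* (-1.90), of which *H19* and *Meg3* are non-coding RNAs read from the maternal copy and *Rtl1* is read from the paternal copy, were higher with a B6 mother at an unadjusted p under 0.05. *H19* (chromosome 7, 149761434 to 149764048) was at 6855, 6813, 7555 and 8325 RPM in F1-mother litters 3, 10, 11 and 12 and at 5959 to 19743 RPM (median 11543) in B6-mother litters. It averaged 15658, 12571 and 12103 RPM in lanes H, I and J and 7400 and 5959 RPM in K and N, on either side of the 8008 and 7416 RPM of lanes L and M with F1 mothers. *Gnas* (chromosome 2, 174109821 to 174172245), which codes for the stimulatory G protein subunit, went the other way. It averaged 373, 473 and 2812 RPM in lanes H, I and J, 6337 and 5330 RPM in K and N, and 4903 and 7311 RPM in L and M. Within litter 13 *Gnas* was at 519 RPM in lane H and 7228 RPM in lane K. Its log2 difference between mothers was 0.76 ± 0.49 (SE, adjusted p = 0.411, edgeR).

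A pair of lists sensitive to how RNA was captured also leaned to the B6 mother. Clustered histone genes, whose mRNAs mostly lack a poly(A) tail, had a median of -0.38 over 22 (-0.01 with library totals). Small nucleolar RNAs had a median of -0.65 over 16 (-0.29 with library totals). They were 0.13 and -0.14 without lanes H, I and J. Among the markers, 8 of decidua and leukocytes had a median of -0.34 (0.02 with library totals) with *Wnt4* (-0.89) at an unadjusted p under 0.05, the yolk sac marker *Fxyd2* was at 0.33, and 15 of the whole embryo had a median of 0.22 with *Lhx2* (1.06) and *Myl7* (-0.90). Their part in the differences was not tested.

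**Figure D5:**
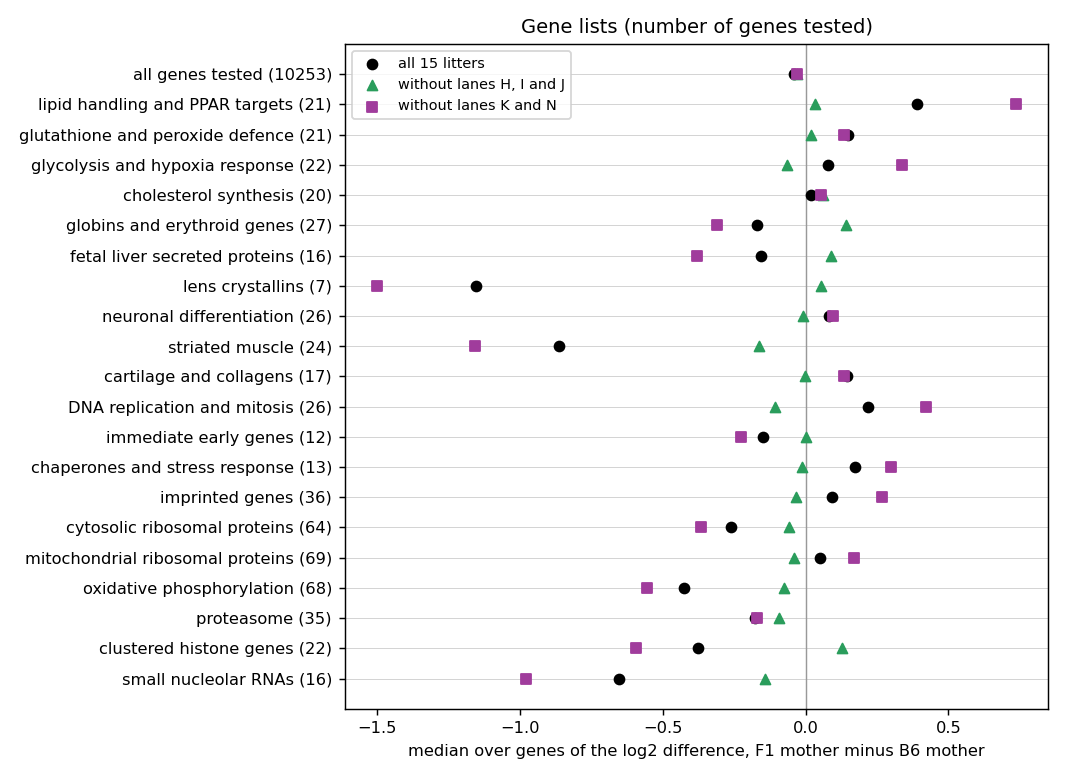
Median log2 difference, F1 mother minus B6 mother (x axis), over the tested genes of each list (y axis, number tested in brackets), for all litters (circles), without lanes H, I and J (triangles) and without lanes K and N (squares). Striated muscle and lens crystallins lie farthest to the B6 side with all litters, at -0.86 and -1.15, and at -0.16 and 0.05 without lanes H, I and J.

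The difference by mother was last compared between flowcells, with 13 litters at the same somite numbers in flowcell 1, 5 of B6 and 8 of F1 mothers. No lane of flowcell 1 held embryos of both mothers, so the difference there is also one between lanes. In flowcell 1 alone 0 of 8421 genes were called (0.0%, edgeR), with 2087 at an unadjusted p under 0.05 (24.8%). The interaction called 0 of 9799 genes (0.0%), with 555 at an unadjusted p under 0.05 (5.66%), and DESeq2 also called 0, with 717 at that p. Across 8277 genes, which are not independent, the log2 differences of the flowcells had a Pearson's r of 0.52 and 68.2% had the same sign. Without lanes H, I and J r was -0.06 over 8182 genes, with 47.4% of the same sign. The smallest interaction p were those of *Dolpp1*, *Nfasc*, *Tmem121*, *1110001A16Rik* and *Pcyox1* (adjusted p = 0.723 each). *Dolpp1*, an enzyme of dolichol recycling for protein glycosylation, was at 41.8 to 51.9 RPM with F1 mothers and 14.7 to 37.05 RPM with B6 mothers in flowcell 2, without overlap. Its log2 difference was 0.29 in flowcell 2 and -0.52 in flowcell 1. *Tmem121* had -0.57 and 1.12, *1110001A16Rik* 0.59 and -0.63, *Nfasc*, a cell adhesion molecule of axons, -0.44 and 0.58, and *Pcyox1* 0.28 and -0.32.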

How the data were processed

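Poly(A)+ RNA of whole N2 embryos was sequenced by 3SEQ. The authors aligned reads with Bowtie2 to mm9 and to a Cast version of it, and deposited raw counts per RefSeq gene. They also deposited estimated counts of B6 and Cast allele votes, and genotypes from a hidden Markov model over those votes. Tables of the F1 generation were not used here. RPM were computed from the counts over all genes of an embryo, scaled to 1000000, and counting error is largest in the embryos with the fewest reads. Counts were summed per litter and fitted over autosomal genes averaging 5 RPM or more in edgeR 4.0.16 (TMM factors, quasi-likelihood test). DESeq2 1.42.0 and limma 3.58.1 were alternatives. Mann-Whitney tests used scipy 1.17.1, and exact permutation tests went through every split of the litters. The edgeR and Mann-Whitney tests were tried on simulated counts that held no lane or litter effects. Those simulations do not show how the tests behave with the lane differences found here. Transcript GC content came from the longest GENCODE protein-coding transcript of each symbol.

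Genes were named by rule: the 10 with the smallest p on each side, up to 4 members of a list that passed or else the 2 with the highest mean RPM, *Angptl4*, *Gpx3* and *Polm*, and the 5 with the smallest interaction p. List members at an unadjusted p under 0.05 were named after their values had been seen. The members, lists and tests were chosen with earlier results of these data known. Litters are separate mothers, and 2 litters have embryos in both flowcells.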

Additional observations from a re-analysis of the deposited data

Results flagged for a closer look

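Among 79 sets of litters, 6 had a litter far from the others in its set, where chance gives about 1 in 20. All 6 were sets of the 4 F1-mother litters tested here. *Rcor1* was highest in litter 11, at 81.9 RPM. *Gpx1*, a glutathione peroxidase, was highest in litter 3, at 1391 RPM. *Uchl1*, a neuronal deubiquitinase, was highest in litter 12, at 529.9 RPM, and so was *Mrpl54*, of the mitochondrial ribosome, at 662 RPM. *Ndufa3*, of respiratory complex I, was lowest in litter 11, at 1292 RPM. *Psma7*, of the proteasome, was lowest in litter 3, at 956 RPM. Litter 3 was in lane L alone, and litters 11 and 12 in lanes L and M.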

How the results depend on the processing

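No paired analysis was possible because litters of the 2 crosses have different mothers and the labels tie none of one cross to one of the other. The litter count of 0 genes stayed 0 with library totals, DESeq2, other filters, a somite covariate, 49 to 51 somites, litter or lane as a block in limma, and without each litter in turn (0 to 0). Genes at an unadjusted p under 0.05 (edgeR) rose from 1228 to 3479 with the somite covariate and to 3883 at 49 to 51 somites. The smallest adjusted p in that window was 0.0794 (edgeR). Neither setting separates stage from lane, as lanes K and N had the lowest mean somite numbers. The litter count became 2623 in edgeR over embryos and 5113 without lanes K and N. The Mann-Whitney count of 0 became 4544 with the Benjamini-Hochberg adjustment, 1 with TMM-scaled RPM and 969 without lanes K and N. For the 3 study genes, exact permutation p are given unadjusted and then adjusted over the 3. *Angptl4* was -24.5 RPM without lanes H, I and J (0.0238 and 0.0714). At 49 to 51 somites it was -27.9 RPM (0.143 and 0.214), and without lanes K and N -33.0 RPM (0.115 and 0.115). In embryos called B6/B6 at the gene it was -22.5 RPM (0.182 and 0.273). Leaving out each litter it ran from -30.4 to -22.6 RPM, with an unadjusted p under 0.05 without B6-mother litter 11 (0.0370 and 0.0554). *Gpx3* was -78.6 RPM with 49 to 51 somites (0.0357 and 0.107) and -115 RPM without lanes K and N (0.00202 and 0.00606). In embryos called B6/B6 at the gene it was -76.5 RPM (0.171 and 0.273), and without lanes H, I and J -12.9 RPM (0.651 and 0.825). Leaving out each litter it ran from -95.4 to -61.3 RPM, with an unadjusted p under 0.05 without B6-mother litter 7 (-92.6 RPM, 0.0160 and 0.0240) or 11 (0.0300 and 0.0554). *Polm* was 0.85 on the log2(RPM + 1) scale (0.0462 and 0.0791), 3.01 RPM without lanes K and N (0.00404 and 0.00606) and -0.157 RPM without lanes H, I and J. At 49 to 51 somites it was 1.74 RPM (0.238 and 0.238), and in embryos called B6/B6 at the gene 1.69 RPM (0.291 and 0.291). Leaving out each litter it ran from 1.47 to 2.40 RPM, with an unadjusted p under 0.05 without B6-mother litter 7 (0.0130 and 0.0240) or 9 (0.0350 and 0.0839) or F1-mother litter 12 (0.0357 and 0.107). The somite difference ran from 0.492 to 1.63. Of 71 named genes fitted, many chosen by p in these data, 47 passed over embryos (25.6% of all genes) and 51 without lanes K and N (51.0%). The cause was not tested. Excluding lanes or the embryo with most Cast votes was chosen after seeing the data.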
